A study of Mus musculus with 2 samples.

Results

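Intestinal sugar transporters were taken as 8 named genes, Slc5a1, Slc5a9, Slc5a11, Slc2a1, Slc2a2, Slc2a3, Slc2a5 and Slc2a9, and were read from a count table of 19294 genes. Of these, 7 had a row and were analysed, each reaching 10 counts or more in either culture, whereas Slc2a3 was not analysed here. The organoids were grown from jejunal crypts of Lgr5-EGFP-IRES-creERT2 mice, which carry EGFP and a tamoxifen-inducible Cre in the Lgr5 locus, and were kept in Matrigel with EGF, Noggin and R-spondin. One culture was left untreated (control) and another received dextran sulfate sodium (DSS), which damages epithelial cells directly, and both were sampled at day 4. Both libraries share the reporter genotype and the growth medium, and the sources used here give neither the animal behind each culture nor the DSS concentration used for sequencing. With 1 library per condition, no difference has a replicate check, no p-value is given, and every interval covers counting error only.

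Dietary glucose and galactose enter the enterocyte across the brush border with sodium, through SGLT1, the product of Slc5a1. Fructose enters on its own gradient through GLUT5, the product of Slc2a5, and hexoses leave across the basolateral membrane mainly through GLUT2, the product of Slc2a2. GLUT1 (Slc2a1) and GLUT3 (Slc2a3) are high-affinity glucose carriers that feed the cell itself, and GLUT1 is the common supplier of dividing cells. Slc5a9 encodes SGLT4, a sodium-coupled carrier of mannose and fructose, Slc5a11 encodes SGLT6, which also carries myo-inositol, and Slc2a9 encodes GLUT9, known above all as a urate carrier. Here Slc2a1 and Slc2a3 were grouped as crypt-type and the other 6 as absorptive.

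Sequencing depth was 65493032 counts for the control and 59746968 for DSS. TMM factors of edgeR (1.09 and 0.915, in that order) scaled the libraries to each other, and levels are given as CPM, the scaled counts per 1e6. Each comparison is the DSS level over the control level, on the log2 scale, followed in parentheses by the exact Clopper-Pearson 95% interval of the counts. A gene was tested, in the sense of entering counts of genes, once either library reached 10 counts, and the median log2 ratio of the 17235 such genes was -0.06. The labels call the cells intestinal stem cells, yet the control library also held enterocyte RNA, with a summed level of 2356 CPM for 10 villus enterocyte markers and 1998 CPM for 10 crypt base and cycling markers. Under DSS these sums were 18160 and 359 CPM.

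All 6 absorptive transporters had more RNA in the DSS library, by 2.68-fold to 15.7-fold, and the crypt-type Slc2a1 was nearly level at 1.23-fold. Of the 7 analysed members, 6 had a log2 ratio of 1 or more, where 19.3% of all tested genes did, and none had a ratio of -1 or less, where 20.2% did. Past a log2 ratio of 2, there were 4 members, against 7.87% of all tested genes, and no member was past -2, against 6.54%. The median over the members was 2.82. Among the 277 tested genes with an Slc symbol, here called solute carrier genes, 39.0% were at 1 or more and the median was 0.44. Solute carriers are transporters of the membrane. More cells of a type and more RNA per cell cannot be told apart in such bulk libraries, and neither can fewer cells and less RNA per cell.

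**Figure D1:**
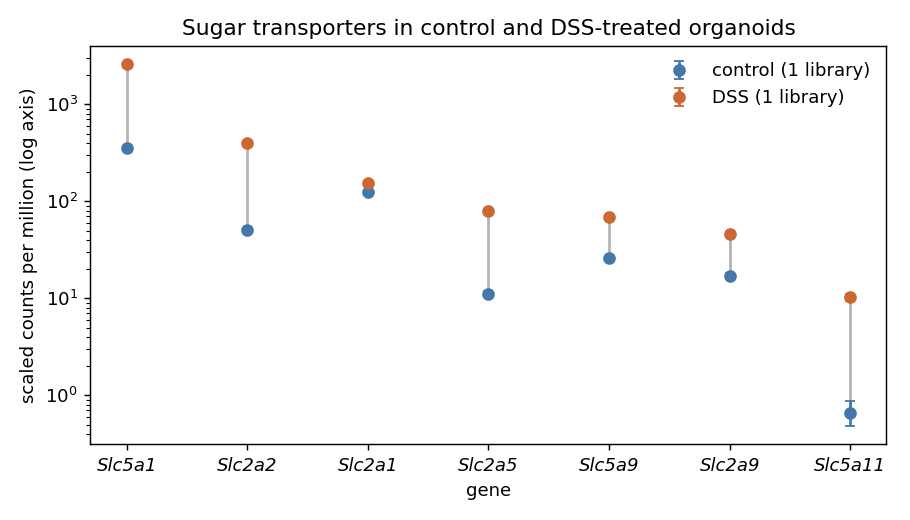
Scaled CPM of the 7 sugar transporters, on a log axis, in the control and the DSS library. Points are single libraries and bars are exact Poisson 95% intervals of the counts. Slc5a1 is the highest in both libraries, and Slc2a1 has the closest pair of points.

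Slc5a1, the sodium-glucose cotransporter of the brush border, was counted 25201 times in control organoids and 141570 times after DSS. These were 352 and 2589 CPM, a 7.35-fold difference or 2.88 on the log2 scale (2.86 to 2.90). In the control library it ranked 7 by CPM among the 277 solute carrier genes tested, and in the DSS library it ranked 1. Of all tested genes, 98.1% had fewer CPM than Slc5a1 in the former and 99.8% in the latter.

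Slc2a2, the basolateral hexose carrier, had 3626 and 21815 counts, or 50.7 and 399 CPM. Its log2 ratio was 2.98 (2.93 to 3.03). Among solute carrier genes, it ranked 73 without DSS and 9 with it. Slc2a5, the fructose carrier, had 796 and 4304 counts, or 11.1 and 78.7 CPM, at a log2 ratio of 2.82 (2.71 to 2.93). The apical glucose carrier, the apical fructose carrier and the basolateral carrier thus differed between the libraries by similar factors, from 7.08-fold to 7.88-fold.

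Slc5a11 had the fewest counts of the members and the highest ratio. Its counts were 47 for control and 563 for DSS, or 0.657 and 10.3 CPM, and its log2 ratio was 3.97 (3.54 to 4.43). Of all tested genes, 20.3% had fewer CPM than Slc5a11 in control and 49.4% in DSS organoids, so it remained in the lower part of the range. Slc5a9 had 1846 and 3795 counts, or 25.8 and 69.4 CPM, at a log2 ratio of 1.43 (1.35 to 1.51). Slc2a9, the urate carrier, had 1224 and 2504 counts, or 17.1 and 45.8 CPM, at a log2 ratio of 1.42 (1.32 to 1.52). The latter pair stayed below the line of 2, although both were past the line of 1.

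Slc2a1, the high-affinity glucose carrier grouped as crypt-type, was counted 8964 times in control organoids and 8397 times after DSS. After scaling, the levels were 125 and 154 CPM, which is 0.29 on the log2 scale (0.25 to 0.34). When the libraries were scaled by total counts only, the ratio was 0.04 and its interval, from -0.005 to 0.081, included 0. That scaling shifted every gene by -0.26, the median included, so Slc2a1 lay 0.35 above the median of the tested genes under either scaling. Of all tested genes, 62.8% had a lower ratio than Slc2a1, compared with 86.7% to 98.8% for the 6 absorptive members. In GENCODE vM21, an exon of Gm12868 on the opposite strand shares 105 bases with Slc2a1, and whether the counting used the strand is not given in the sources used here. No exon of another gene overlaps the exons of the other 6 members.

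**Figure D2:**
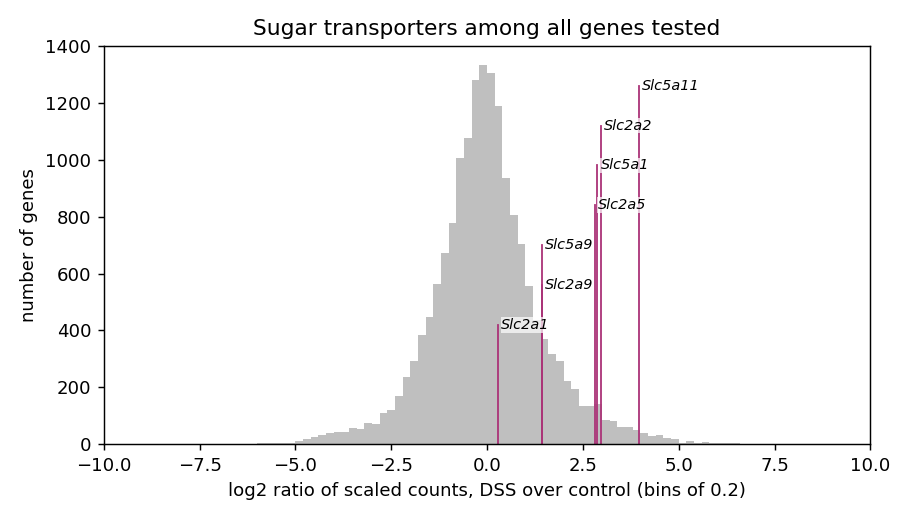
Number of genes by log2 ratio of scaled counts, DSS over control, in bins of 0.2 for all 17235 tested genes (grey), with each sugar transporter marked by a line whose height has no meaning. Slc2a1 lies in the central part at 0.29, and the 6 absorptive members lie to the right, from 1.42 to 3.97.

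Ratios of counts within a library do not depend on how the libraries are scaled to each other. The 6 absorptive members together were counted 32740 times in control and 174551 times in DSS organoids. Set against Slc2a1, the only crypt-type member analysed, their sum was higher by 2.51 on the log2 scale in DSS, with an interval from 2.46 to 2.55 from the normal approximation of the log odds ratio. Slc5a1 supplied most of that sum, and without it the difference was 2.22. Counts of Slc5a1 per count of Slc2a1 were 2.81 without DSS and 16.9 with it.

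Of the 21 pairs of members, 19 differed in their log2 ratios by more than the counting interval of the difference. The pair of Slc5a1 and Slc2a5 did not, with a difference of 0.06 and an interval, by the same approximation, from -0.06 to 0.17. Nor did Slc5a9 and Slc2a9, with a difference of 0.01 and an interval from -0.12 to 0.13. Slc5a1 and Slc2a2 differed by a small amount, since there were 6.95 counts of Slc5a1 per count of Slc2a2 in the control library and 6.49 in the DSS library. Slc2a1 and Slc2a2 changed places, with 2.47 counts of Slc2a1 per count of Slc2a2 in the control and 0.385 in DSS. By these values Slc5a1, Slc2a2 and Slc2a5 lay close together between 2.82 and 2.98, Slc5a9 and Slc2a9 lay together near 1.42, and Slc5a11 and Slc2a1 stood at either end.

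To compare genes with each other, CPM were divided by transcript length in kilobases (CPM/kb). The order in the control library was Slc5a1 at 85.8, Slc2a1 at 38.4, Slc2a2 at 9.10, Slc5a9 at 5.75, Slc2a9 at 4.75, Slc2a5 at 3.52 and Slc5a11 at 0.274 CPM/kb. In the DSS library it was Slc5a1 at 631, Slc2a2 at 71.6, Slc2a1 at 47.1, Slc2a5 at 24.9, Slc5a9 at 15.5, Slc2a9 at 12.7 and Slc5a11 at 4.30 CPM/kb. Slc2a2 passed Slc2a1, and Slc2a5 passed Slc5a9 and Slc2a9. No neighbours in either order had overlapping counting intervals, but the place of Slc2a9 depended on the transcript used. With its shortest matched transcript of 1296 bases instead of the longest of 3602 bases, its level was 13.2 CPM/kb without DSS and 35.3 with it, above Slc2a2 in the former and above Slc2a5 in the latter. The summed level of the members went from 148 to 807 CPM/kb. Of that sum, Slc5a1 took 58.1% in the control library and 78.2% in the DSS library, whereas the share of Slc2a1 went from 26.0% to 5.84%.

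**Figure D3:**
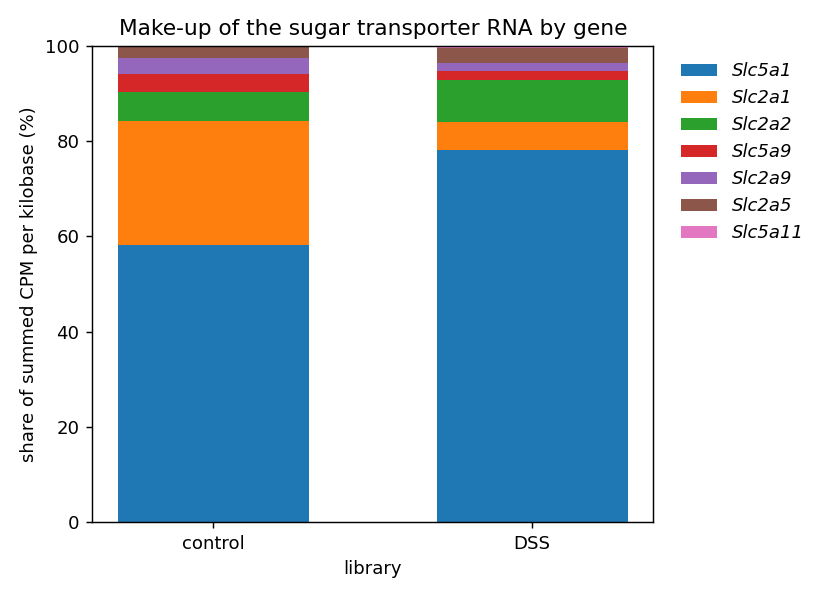
Share of each gene in the summed CPM per kilobase of the 7 sugar transporters, in percent, for the control and the DSS library. Slc5a1 widens from 58.1% to 78.2% and Slc2a1 narrows from 26.0% to 5.84%.

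The sequence before the transcription start was examined for the members with similar ratios, Slc5a1, Slc2a2 and Slc2a5, and for Slc2a1, whose ratio differed from theirs. Each sequence covers 250 bases up to the start, 5′ to 3′ along the gene, from RefSeq on build GRCm38.p6, all on the plus strand. The windows are chr5:33103969-33104218 for Slc5a1, chr3:28697653-28697902 for Slc2a2, chr4:150119094-150119343 for Slc2a5 and chr4:119108495-119108744 for Slc2a1. Capitals mark matches, on either strand, to any of 7 searched motifs.
Slc5a1: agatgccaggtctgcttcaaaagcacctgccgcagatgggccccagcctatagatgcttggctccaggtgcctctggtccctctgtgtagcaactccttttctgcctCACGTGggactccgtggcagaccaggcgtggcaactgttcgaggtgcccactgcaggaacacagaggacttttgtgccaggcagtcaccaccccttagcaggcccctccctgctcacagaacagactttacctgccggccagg
Slc2a2: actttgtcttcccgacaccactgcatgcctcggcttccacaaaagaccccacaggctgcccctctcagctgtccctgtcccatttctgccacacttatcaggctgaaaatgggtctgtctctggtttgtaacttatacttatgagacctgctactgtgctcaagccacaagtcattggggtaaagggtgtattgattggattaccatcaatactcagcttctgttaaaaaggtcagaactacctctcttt
Slc2a5: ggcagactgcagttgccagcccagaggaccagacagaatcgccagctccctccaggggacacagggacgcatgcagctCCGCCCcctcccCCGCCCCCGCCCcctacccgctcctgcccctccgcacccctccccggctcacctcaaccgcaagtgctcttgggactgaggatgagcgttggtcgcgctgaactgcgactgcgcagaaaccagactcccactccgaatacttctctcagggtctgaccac
Slc2a1: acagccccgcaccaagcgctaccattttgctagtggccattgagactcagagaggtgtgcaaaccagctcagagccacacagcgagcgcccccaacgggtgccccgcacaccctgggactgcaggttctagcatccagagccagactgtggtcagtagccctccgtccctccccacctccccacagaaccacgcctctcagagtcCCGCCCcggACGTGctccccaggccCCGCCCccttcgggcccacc

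A site of the nuclear receptor HNF4 was searched as CAAAGTCCA. Intestinal GATA factors were represented by the letters AGATAA and the homeobox factors of the CDX family by the letters TTTATG. The TATA box was searched as TATAAA and the GC box, which Sp family factors bind, as GGGCGG. The E-box that makes up carbohydrate response elements was searched as CACGTG, and the core of hypoxia response elements, which also lies within every such E-box, as ACGTG. Slc5a1 held 1 E-box, from 143 to 138 bases before the start, and 6.02% of 32851 promoter windows of the same length held this motif. Slc2a5 held 3 matches to the GC box and Slc2a1 held 2, and 32.7% of all windows held at least 1. Slc2a1 also held 1 ACGTG, which was found in 16.6% of windows. None of the 7 motifs was found in the Slc2a2 window, so the members with similar ratios had no searched motif in common here. The base composition differed as well, with 47.2% G and C for Slc2a2 and 66.4% for both Slc2a5 and Slc2a1, against a median of 52.4% over all windows. A match is a stretch of letters and does not show binding.

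Other genes of the SLC2 and SLC5 families gave a wider range than the members. Of 7 other SLC2 genes listed, 3 were tested, with 2 at a log2 ratio of 1 or more and none at -1 or less. Slc2a7, an intestinal relative of the fructose carrier, had 131 counts without and 626 with DSS, a ratio of 2.65. Slc2a10 had 4 and 119 counts, and a ratio of 5.28 (3.89 to 7.18). Slc2a8, a carrier of inner membranes, had 443 and 315 counts, for a ratio of -0.10 whose interval included 0.

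Of 10 other SLC5 genes listed, 7 were tested, 5 of them at 1 or more and another at -1 or less (Slc5a5). Slc5a4b, which encodes an SGLT3 protein, was counted 417 times in control and 13724 times in DSS organoids. These were 5.83 and 251 CPM, a log2 ratio of 5.43 (5.29 to 5.57). Among the 277 solute carrier genes, only 1 had a higher ratio. In the DSS library its level of 78.4 CPM/kb was slightly above that of Slc2a2, while in the control library its 1.82 CPM/kb was below all members but Slc5a11. Its close relative Slc5a4a had 13 and 182 counts, a ratio of 4.20. The counting rules for reads shared by related genes are not given in the sources used here, so the separate values of Slc5a4a and Slc5a4b are uncertain.

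Most of the remaining SLC5 genes carry other cargo. Slc5a8, the sodium-coupled monocarboxylate carrier, was at 2.21, and Slc5a10, a relative of the mannose and fructose carrier, was at 1.54. Slc5a6, the multivitamin carrier, was at 1.04. Slc5a3, a myo-inositol carrier, had 1251 and 513 counts and a ratio of -0.90. Slc5a5, the iodide carrier, had 10 and 3 counts, and a ratio of -1.35 (-3.85 to 0.61).

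**Figure D4:**
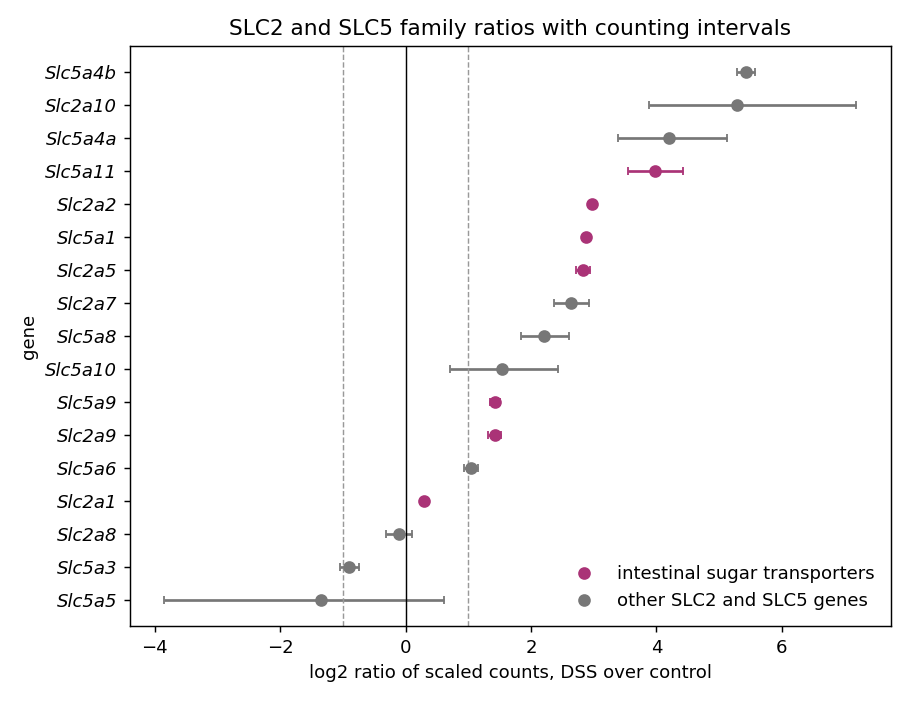
Log2 ratio of scaled counts, DSS over control, for the 7 sugar transporters and the 10 other SLC2 and SLC5 genes tested. Bars are exact 95% counting intervals and dashed lines mark 1 and -1. Slc5a4b, Slc2a10 and Slc5a4a lie above all members, and Slc2a8, Slc5a3 and Slc5a5 lie below 0.

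Genes that act before and after the transporters in sugar absorption were mostly higher after DSS as well. Of the disaccharidases, brush border enzymes that release the hexoses, 4 were tested and all 4 were at a log2 ratio of 2 or more, with a median of 2.62. Sucrase-isomaltase (Sis) was at 3.32 and reached 7062 CPM in the DSS library, and maltase-glucoamylase (Mgam) was at 2.87. Trehalase (Treh) was at 2.37 and lactase (Lct) at 2.15. Counts of Slc5a1 per count of Sis were 0.496 without DSS and 0.367 with it, so the enzyme differed more than the transporter.

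Of 7 genes of fructose handling, 5 were at 1 or more and none at -1 or less, with a median of 1.46. Ketohexokinase (Khk), which phosphorylates fructose after its entry through Slc2a5, was at 1.65. Triokinase (Tkfc), which acts further down the same route, was at 1.46. G6pc, the phosphatase that frees glucose, was at 2.44 and Glyctk, the glycerate kinase, at 1.42. Fbp1, a bisphosphatase of gluconeogenesis, was at -0.32, and Slc37a4, which carries phosphorylated glucose into the endoplasmic reticulum, was at 0.55.

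The sodium pump sets the gradient that drives Slc5a1. Its subunit Atp1b1 was at 1.09, while Atp1b3 was at -0.78. Slc50a1, the SWEET type of sugar carrier, had 3444 and 2052 counts and a log2 ratio of -0.36, in contrast to the absorptive members.

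Lists of sugar use inside the cell had medians near that of all genes, while single genes went both ways. The median of 17 glycolysis enzymes was -0.01, with 1 gene at 1 or more and none at -1 or less. Hkdc1, a hexokinase family member, was at 1.45, Gapdh was at 0.97, Pfkfb3 at 0.86 and Pkm at -0.61. Among 11 genes of the hypoxia response or known to be regulated together with GLUT1, the median was 0.02, with none at 1 or more. Myc was at -1.97, Pdk1 at -0.66, Hif1a at 0.78 and Epas1 at 0.63.

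Of 8 tested genes of the carbohydrate response and sugar sensing, 1 was at 1 or more, and the median was 0.24. Pklr, a pyruvate kinase and a known target of the carbohydrate response factor ChREBP, was at 1.56. Mlxipl, which encodes ChREBP, had 421 and 392 CPM and a ratio of -0.10. The sugar-responsive gene Txnip was at -0.13, Arrdc4 at 0.41, Mlx at 0.78 and the sweet taste receptor subunit Tas1r3 at 0.45.

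Genes listed as regulators of the transporters went both ways, with 7 of 10 above 0 and a median of 0.59. Of these 10 genes, 3 were at 1 or more and 1 was at -1 or less. Hnf4g, a nuclear receptor of enterocytes, was at 2.24, whereas its relative Hnf4a, the most abundant gene of the list, was at 0.05. Sgk1, a kinase that raises the surface level of SGLT1, had 316 and 1994 counts and a ratio of 3.05. Cdx2, a homeobox factor of intestinal identity, was at -1.35.

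Gut hormone genes were higher in the DSS library. All 5 listed genes were at 1 or more, with a median of 2.90. Gip, the incretin of the upper intestine, was at 2.90 and Gcg, the precursor of glucagon-like peptides, at 3.04, and sugar is a known stimulus for release of both. Secretin (Sct), which is released mainly by acid, was at 3.46, and cholecystokinin (Cck), released mainly by fat and protein, was at 2.23. Chga and Chgb, general markers of the enteroendocrine cells that make these hormones, were higher too, at 2.60 and 2.30, and their part in the hormone ratios was not tested. By RT-PCR, the paper that reported these data found Chga at a similar level with and without DSS, unlike the ratio here. Of the genes of urate handling, which were listed because of Slc2a9, 4 were tested and all 4 were at 1 or more. Xdh, which makes urate, was at 2.79, the urate exporter Abcg2 at 1.54 and Slc17a4 at 1.25, compared with 1.42 for Slc2a9.

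**Figure D5:**
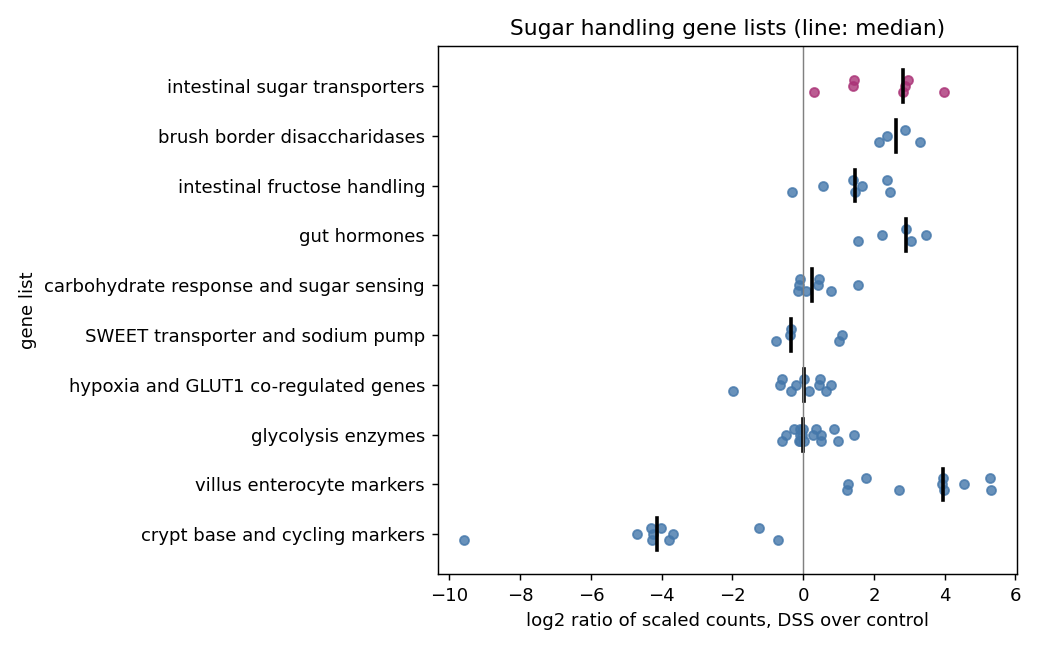
Log2 ratio of scaled counts, DSS over control, for the tested genes of 10 lists. Each point is a gene and each black line is the median of its list. The transporters, disaccharidases and hormones have medians of 2.82, 2.62 and 2.90, and glycolysis and hypoxia genes centre on 0.

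Markers of the cell types went in different directions, with enterocyte markers higher in the DSS library and crypt and Paneth markers lower. All 10 villus enterocyte markers were at 1 or more, with a median of 3.94, and included Ada at 5.30, Apoa1 at 5.27, Apoa4 at 4.54 and Krt20 at 3.99. The lowest were Vil1, the structural villin of microvilli, at 1.25 and Anpep, a brush border peptidase, at 1.24. For Vil1, the paper that reported these data describes similar levels with and without DSS by RT-PCR, unlike the ratio here. The reason for this difference was not tested. The ratios of all 6 absorptive members lay between the lowest and the highest of these enterocyte markers. All 10 crypt base and cycling markers were below 0, with a median of -4.14, and included Olfm4 at -9.59 and Mcm5 at -4.70. The 5 Paneth markers were also all below 0, with a median of -1.03. Slc2a1, although grouped as crypt-type, was at 0.29, above all of these crypt and Paneth markers and below all of the enterocyte markers. The part of the enterocyte and crypt markers in the transporter ratios was not tested.

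The analysed markers of other cell types that use GLUT1 or GLUT3 had summed levels of 36.1 CPM or less per type in either library. The immune markers analysed, 4 of 10, summed to 14.1 CPM without DSS and 24.6 CPM with it, and Ptprc and Cd3e were not analysed here. The endothelial markers, 3 of 5, summed to 1.03 and 3.16 CPM, and the neural markers, 6 of 7, to 5.42 and 18.3 CPM. The mesenchymal markers, 5 of 8, summed to 6.66 and 36.1 CPM, of which Vim alone had 5.23 and 34.0 CPM. None of the 6 erythroid markers was analysed. No listed gene had fewer than 1 count in either library, so a gene without reads in any of them has no value here. A sum of marker levels does not measure how much Slc2a1 RNA such cells hold. Their part in the value of Slc2a1 was not tested.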

How the data were processed

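RNA from 1 untreated and 1 DSS-treated organoid culture was sequenced. The authors deposited raw counts per gene, without normalization, from libraries of a stranded mRNA kit. The submitters' processing notes name HISAT2 and StringTie, and versions, genome build and counting rules are not given in the sources used here. Files named as FPKM held the same counts for all 19294 genes.

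Scaling between libraries used TMM factors (edgeR 4.0.16, R 4.3.3). Ratios have exact Clopper-Pearson 95% intervals, levels exact Poisson intervals, and differences between genes the normal approximation of the log odds ratio. No test was made, and fold lines of 1 and 2 on the log2 scale were applied to genes reaching 10 counts in either library. Transcript lengths were the longest GENCODE vM21 transcript paired with a listed accession. Promoters were matched by symbol for 6 of 7 members. The members and lists were chosen with earlier results of these data known. Named genes were all members and fixed parts of each list (all genes of the families, disaccharidases and fructose handling, otherwise those with the largest ratios and the most abundant). As exceptions, some listed genes are counted but not reported here by name. Vil1, Anpep, Chga, Chgb and Mlxipl were chosen after their values were seen. The scripts for ratios were tested on simulated data. Scaling was repeated with total counts, with DESeq2 1.42.0 and with upper quartile factors. Further alternatives were a thinned control library, a prior count of 2, other count minimums and, added after the data were seen, centring on the median gene and leaving out Slc5a1. Python 3.11.15, scipy 1.17.1, pandas 2.3.3 and matplotlib 3.10.9 were used.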

Additional observations from a re-analysis of the deposited data

How the results depend on the processing

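The number of transporters at a log2 ratio of 1 or more was 6 of 7 under each alternative of scaling, count minimum, prior count, thinning and centring, and none was at -1 or less. The median over the members was 2.82, and it became 2.57 when only total counts were used for scaling. The difference between the absorptive members and Slc2a1 was 2.51, and 2.22 without Slc5a1, an alternative added after the data were seen. Of 42 values of single members under the scaling, prior count, thinning and centring alternatives, 29 stayed within the counting interval and 13 moved outside it, and none changed direction. Slc2a1 ranged from 0.04 to 0.38 and Slc5a11 from 3.71 to 4.10. Of all tested genes past the lines of 1 and -1, 48.9% were higher in DSS, and 37.1% after scaling by total counts. No paired analysis was possible because each condition has 1 library. Counting error is small at this depth except for Slc5a11 in the control library. The variation between cultures was not measured.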
